A study of Mus musculus with 32 samples.

Results

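The 9 genes described here, Slc1a2, Slc1a3, Gja1, Aqp4, Aldh1l1, Gfap, S100b, Ntsr2 and Sox9, are in common use as markers of astrocytes, and several also have known roles in heart, kidney or liver. They were chosen by name, and all 9 were found among the 27179 genes of a table of RNA polymerase II (Pol II) occupancy in mouse brain, heart, kidney and liver. Each organ was kept either as formalin-fixed, paraffin-embedded tissue (FFPE, 10% formalin) or flash frozen, and an antibody to the C-terminal domain of Pol II was used to pull down its chromatin. FFPE tissue was deparaffinised and heated at 95 °C for 20 min, whereas cores of frozen tissue received 1% formaldehyde for 30 min, so preservation and extraction differ together. The labels list 32 libraries in 16 groups (4 organs, FFPE or frozen, Pol II or input) of 2 each, and give no strain, sex, age or genotype. The table has 8 value columns named by organ and preservation, FFPE brain, frozen brain, FFPE heart, frozen heart, FFPE kidney, frozen kidney, FFPE liver and frozen liver, each called a profile here. Profiles are not known to come from separate animals, so an adjusted p refers to the spread among these 8 columns and to nothing wider.

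Astrocytes are glial cells that take up neurotransmitter, buffer ions and water around synapses and blood vessels, and are coupled to one another through gap junctions. Many of the proteins that do this work are not specific to the brain: gap junctions also pass current between cardiomyocytes, water channels also move water in the kidney, and folate enzymes are also part of liver metabolism. Pol II on a gene body marks a gene that is being transcribed, so an antibody against Pol II reads transcription from chromatin rather than RNA.

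By this measure the 9 genes did not form a brain group. In brain against the other organs Slc1a2 was higher and Aldh1l1 lower, while Gja1 was higher in heart and Aldh1l1 and Sox9 in liver. Of the pairs of organs for Sox9, only kidney against liver passed. Slc1a3, Gfap, Aqp4, S100b and Ntsr2 passed no organ test. The summed level of the 9 genes was 424 to 442 RPM (reads of a gene scaled to the depth of its profile) in the 2 brain profiles, inside the range of 344 to 533 RPM in the other 6. These are bulk tissues, so fewer cells of a type and less Pol II per cell cannot be told apart. Levels are given throughout as log2 of depth-scaled reads, that is log2 of RPM with 0.5 reads added to each count, and folds as log2 differences with their standard error. An organ was tested with limma as 2 profiles against 6, with Benjamini-Hochberg adjustment over 26758 genes, and a gene was called at an adjusted p under 0.05. The mean of the other organs includes any organ with a high level, so a call of lower may only mirror that level. In total 7 of 36 tests of an organ against the others were called among the 9 genes. Of all genes, 7.46% were called in either direction for brain, 5.24% for heart, 1.38% for kidney and 7.91% for liver.

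**Figure D1:**
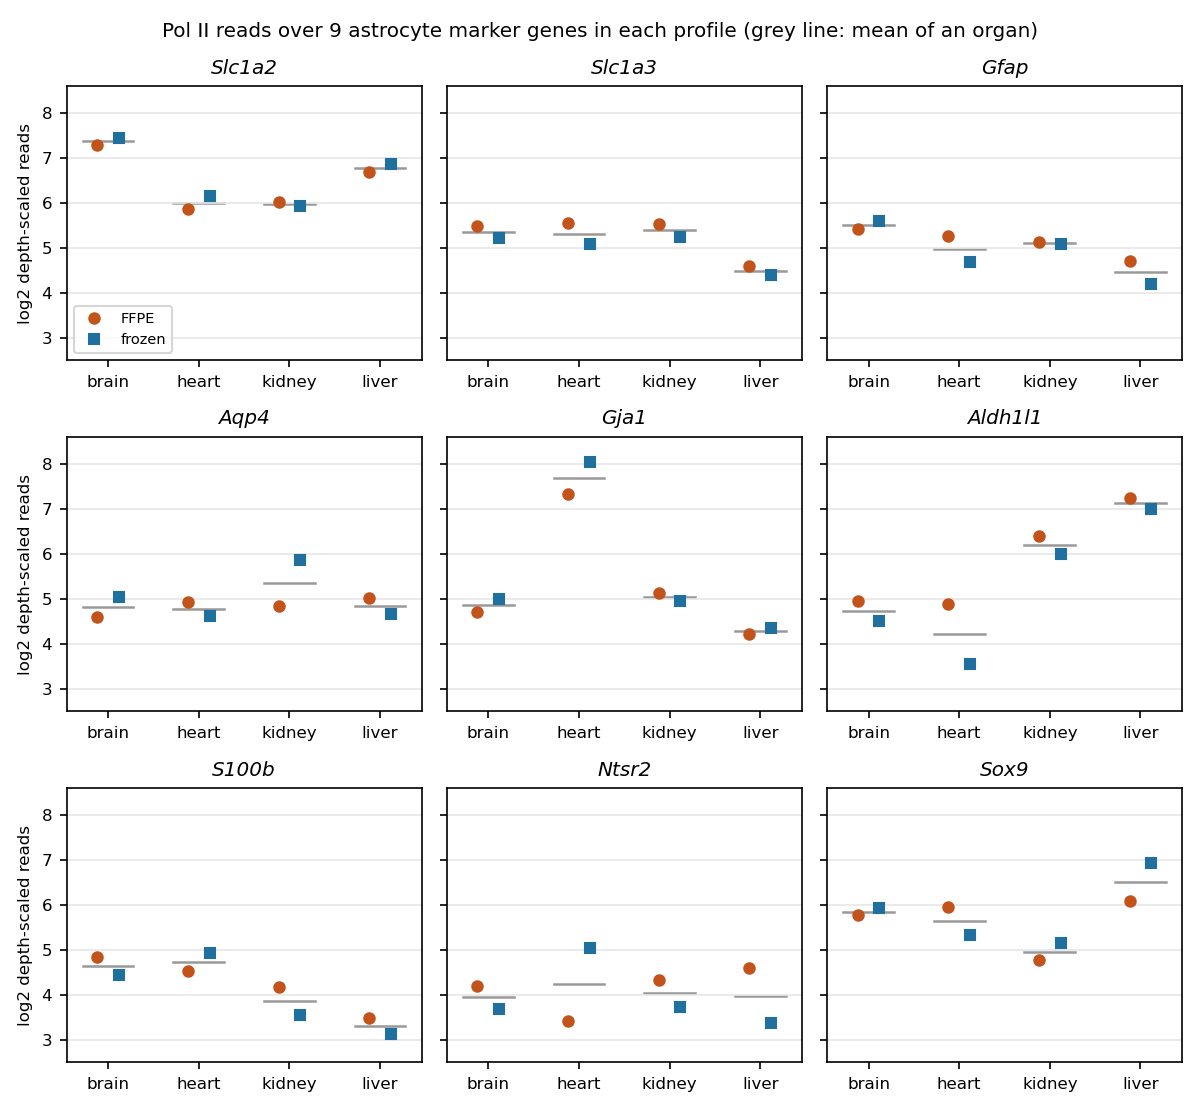
Level of each of the 9 genes (y axis, log2 depth-scaled reads) in the 8 profiles, grouped by organ (x axis), with circles for FFPE, squares for frozen and a grey line at the mean of each organ. Gja1 stands highest in heart (7.32 and 8.05) and Aldh1l1 in liver (7.25 and 7.0), whereas Slc1a2 stands highest in brain (7.29 and 7.45).

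Depth was limited. The profiles held between 864816 (FFPE liver) and 2178329 (frozen liver) reads in genes, and a single one of the 9 genes had between 8 and 394 reads in a profile. FFPE heart had 25.6% and FFPE kidney 19.2% of its reads in mitochondrial genes; the other 6 profiles had 7.73% to 11.99%. Marker lists, chosen with earlier results of these data known, are no independent check of the organ labels. In brain 10 of 10 neuronal genes passed the test as higher, and in heart 9 of 10 cardiomyocyte genes. In kidney 9 of 10 proximal tubule genes passed as higher, and in liver 10 of 10 hepatocyte genes. Of all genes, 3.43%, 3.06%, 0.919% and 4.52% passed as higher in these organs. By contrast, 0 of 10 collecting duct genes were higher in kidney. Bile duct genes were higher for 1 of 7 in liver and 2 of 7 in kidney. Of the proximal tubule genes, 1 was also higher in brain and 2 in liver. Among other cells of the brain, 3 of 10 oligodendrocyte genes (Mbp and Mobp among them) and 0 of 8 microglia genes passed as higher in brain. No gene of these marker lists was at 0 reads in any profile. As a background, olfactory and vomeronasal receptor genes, which are silent in these organs, had a median level between 1.59 (frozen heart) and 2.31 (frozen kidney) per profile. Marker genes also kept reads outside their own organ. The 10 hepatocyte genes summed to 163 (FFPE) and 175 (frozen) RPM in brain, and the 10 neuronal genes to 158 to 278 RPM outside brain. How much of a level of the 9 genes is background was not tested, and inputs were not used. Gene lengths enter the levels, so levels are compared between profiles and not between genes.

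Promoter windows of Slc1a2, Gja1 and Aldh1l1, which stood highest in brain, heart and liver, and of Gfap, the classic astrocyte marker, are printed from RefSeq (GRCm38.p6, the build also named mm10). Each holds the 250 bases before the start that the promoter table lists, read 5′ to 3′ on the strand of the gene. Distances below are counted from that listed start, the base after each window, which for Aldh1l1 and Slc1a2 is not the end of the annotated span. Capitals mark matches to the motifs, which were searched on both strands and do not overlap here. They were TGANTCA, which AP-1 factors bind, TATAAA, the core promoter box, CCAAT, which NF-Y binds, GGGCGG, which Sp1 binds, TTCNNNGAA, which STAT factors bind, ACAATG, which SOX factors bind, and the full palindrome of NFI factors.
Slc1a2, chr2:102706188-102706437, plus strand: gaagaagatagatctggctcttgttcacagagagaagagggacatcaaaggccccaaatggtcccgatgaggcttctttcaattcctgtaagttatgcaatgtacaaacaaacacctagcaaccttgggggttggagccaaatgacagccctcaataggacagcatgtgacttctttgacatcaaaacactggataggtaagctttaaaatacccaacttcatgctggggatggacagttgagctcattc
Gfap, chr11:102897201-102897450, minus strand: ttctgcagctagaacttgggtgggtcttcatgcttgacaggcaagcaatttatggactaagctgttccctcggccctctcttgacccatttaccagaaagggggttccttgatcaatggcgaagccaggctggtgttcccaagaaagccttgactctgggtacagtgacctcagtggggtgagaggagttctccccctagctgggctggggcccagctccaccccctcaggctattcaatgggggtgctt
Gja1, chr10:56377050-56377299, plus strand: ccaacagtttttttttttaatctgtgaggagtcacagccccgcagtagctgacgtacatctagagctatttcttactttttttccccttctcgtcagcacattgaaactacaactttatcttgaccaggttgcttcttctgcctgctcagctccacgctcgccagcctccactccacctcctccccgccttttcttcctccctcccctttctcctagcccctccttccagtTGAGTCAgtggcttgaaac
Aldh1l1, chr6:90550543-90550792, plus strand: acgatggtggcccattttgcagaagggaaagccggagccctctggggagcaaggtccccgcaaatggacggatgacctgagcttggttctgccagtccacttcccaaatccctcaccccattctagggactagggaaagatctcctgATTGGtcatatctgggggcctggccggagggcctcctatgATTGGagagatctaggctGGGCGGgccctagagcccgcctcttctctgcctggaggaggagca
The Gja1 window held 1 AP-1 match, 19 to 13 bases before the listed start, a motif found in 6.75% of 32851 promoter windows of this length. The Aldh1l1 window held 2 matches to CCAAT, 103 to 99 and 63 to 59 bases before the listed start (33.8% of windows hold at least 1), and an Sp1 match 45 to 40 bases before it (32.7% of windows). The windows of Slc1a2 and Gfap held no match to these letters, which says nothing of other letters or of sites elsewhere. They were also poor in CpG, with 1 and 2 CpG dinucleotides, whereas Gja1 had 6 and Aldh1l1 had 7; the median window had 6. The window of Slc1a2 lies wholly inside the annotated span of the gene, which begins far upstream of it, at base 102658239. Its letters and CpG count therefore do not describe the sequence before the annotated start of Slc1a2. The last 25 bases of the Aldh1l1 window lie inside the span of Aldh1l1. The windows of Gfap and Gja1 lie outside their spans.

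Slc1a2 encodes GLT-1, the transporter that clears most glutamate from synapses, and is annotated at chr2:102658239-102790784. It was the clearest brain gene of the 9, at 7.29 in FFPE and 7.45 in frozen brain, against 6.69 and 6.87 in FFPE and frozen liver, 5.87 and 6.15 in FFPE and frozen heart, and 6.02 and 5.93 in FFPE and frozen kidney. Both brain profiles lay above the other 6, and both liver profiles lay between brain and the other organs. Slc1a2 was higher in brain by 1.11 ± 0.22 (limma, adjusted p = 0.00183), where 3.43% of all genes were called higher. Compared organ by organ, it was higher in brain than in heart by 1.36 ± 0.27 (adjusted p = 0.00216; 6.65% of all genes were called between these organs) and than in kidney by 1.39 ± 0.27 (adjusted p = 0.00296; 3.78% of all genes). The difference between brain and liver, 0.59 ± 0.27, did not pass (adjusted p = 0.209; 9.32% of all genes did), so the leading pair in the order was not separated. The brain fold hardly moved when 1 brain profile was left out, at 1.14 without FFPE brain and 1.09 without frozen brain. The call was lost in either case, where 1 brain profile remained and fewer of all genes were called higher in brain. Scaling the profiles to silent receptor genes, an alternative chosen after the data were seen, gave 0.89 (adjusted p = 0.0904). The call between brain and heart was lost without FFPE brain (1.38, adjusted p = 0.0669), frozen brain (1.34, adjusted p = 0.0986) or FFPE heart (1.26, adjusted p = 0.0763), and that between brain and kidney without FFPE brain (1.42, adjusted p = 0.0854), frozen brain (1.37, adjusted p = 0.15) or frozen kidney (1.24, adjusted p = 0.086). Both were also lost when scaled to silent receptor genes (1.02, adjusted p = 0.119, for heart and 1.27, adjusted p = 0.0729, for kidney) and without FFPE heart and FFPE kidney together (1.31, adjusted p = 0.0713, and 1.53, adjusted p = 0.061). Under quantile normalization the difference between brain and liver was 0.77 and passed (adjusted p = 0.0485). The folds of heart (-0.70 ± 0.22, limma, adjusted p = 0.0647) and kidney (-0.75 ± 0.22, adjusted p = 0.104) did not pass. Both passed without FFPE liver (-0.71 and -0.76) and without frozen liver (-0.69 and -0.74). In those fits more of all genes were called lower in heart and in kidney as well.

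Slc1a3 encodes GLAST, the other main glutamate transporter of astrocytes, and lies at chr15:8634124-8710807. Its levels were 5.48 and 5.22 in FFPE and frozen brain, 5.56 and 5.08 in FFPE and frozen heart, 5.54 and 5.24 in FFPE and frozen kidney, and 4.59 and 4.39 in FFPE and frozen liver. Brain, heart and kidney overlapped, and both liver profiles lay below all others. The brain fold was 0.28 ± 0.28 (adjusted p = 0.691) and the liver fold -0.86 ± 0.28 (limma, adjusted p = 0.0627). Without mitochondrial genes in the totals, the liver fold was -0.97 and passed (adjusted p = 0.033); there the median liver fold of all genes was -0.14. Of the 7 genes of the Slc1 family of glutamate and neutral amino acid transporters, Slc1a2 alone was called higher in brain and none lower, with a family median of 0.28 beside 0.01 for all genes. In heart the neutral amino acid transporter Slc1a5 was higher by 1.10 ± 0.29 (adjusted p = 0.027), a call that held in 3 of the 8 fits that each leave out 1 profile.

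Gja1 encodes connexin 43, the gap junction protein that couples astrocytes and is also the main connexin of the working heart muscle, and is annotated at chr10:56377300-56390419. Its levels were 7.32 and 8.05 in FFPE and frozen heart, from 127 and 394 reads. In the other organs they were 4.72 and 4.99 in FFPE and frozen brain, 5.13 and 4.96 in FFPE and frozen kidney, and 4.23 and 4.36 in FFPE and frozen liver. Both heart profiles lay above all others and both liver profiles below all others, with brain and kidney overlapping. Gja1 was higher in heart by 2.95 ± 0.27 (limma, adjusted p = 3.04e-07), where 3.06% of all genes were called higher, and lower in liver, with a fold of -1.57 ± 0.27 (adjusted p = 0.000463), where 3.39% were called lower. In brain the fold was -0.82 ± 0.27 and did not pass (adjusted p = 0.0683); it passed without FFPE liver (-0.79, adjusted p = 0.0306) and without frozen liver (-0.84, adjusted p = 0.0258). Gja1 was lower in brain than in heart, with a fold of -2.83 ± 0.33 (adjusted p = 8.77e-06). It was higher in heart than in kidney by 2.64 ± 0.33 (adjusted p = 3.79e-05; 2.67% of all genes were called) and than in liver by 3.39 ± 0.33 (adjusted p = 5.14e-07; 7.07% of all genes). Brain and kidney differed by -0.19 ± 0.33 (adjusted p = 0.909) and brain and liver by 0.56 ± 0.33 (adjusted p = 0.367). Kidney and liver differed by 0.75 ± 0.33 (adjusted p = 0.28), and none of these pairs passed the threshold. In pairs, liver was thus separated from heart alone. The mean that liver was tested against includes heart, so the liver call is not a result apart from the high heart level.

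Like Gja1, the summed markers of several heart cell types stood highest in heart. Cardiomyocyte genes summed to 3491 (FFPE) and 7308 (frozen) RPM in heart, against 254 to 511 elsewhere. Endothelial genes, of which 5 of 8 were higher in heart, summed to 739 to 925 RPM there and 198 to 449 elsewhere, and fibroblast genes, of which 1 of 7 was higher, to 471 to 549 in heart and 240 to 380 elsewhere. Their part in the Gja1 result was not tested. Over the 8 profiles the genes most like Gja1 by Pearson r were Actc1, the cardiac actin (r = 0.995), Emp2, a membrane protein (0.989), and Ldb3, a Z-disc protein of striated muscle (0.987). Of 14 connexin genes, Gja1 and Gjc1 (connexin 45, 1.67 ± 0.31, adjusted p = 0.00163) were higher in heart, and Gjb6 was lower (-1.90 ± 0.50, adjusted p = 0.0272). The connexins of hepatocytes, Gjb2 (2.66 ± 0.48, adjusted p = 0.000782) and Gjb1 (2.58 ± 0.60, adjusted p = 0.00707), were higher in liver, where Gja1 was the 1 connexin called lower. In brain no connexin was called higher and Gjb2 was lower (-1.63 ± 0.48, adjusted p = 0.0381); Gjb6, the second connexin of astrocytes, had a brain fold of 1.25 ± 0.50 that did not pass (adjusted p = 0.164). Without frozen liver the liver folds were 1.29 for Gjb2 (adjusted p = 0.252) and 1.49 for Gjb1 (adjusted p = 0.471), and without FFPE liver that of Gjb2 was 4.02 and passed. The brain fold of Gjb2 was -0.49 without frozen brain (adjusted p = 0.942) and -2.77 without FFPE brain, and it was called in 3 of 8 fits without 1 profile, as was Gjb6 in heart. Gjc1 lost its call without frozen heart (1.35, adjusted p = 0.166).

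Aqp4, the water channel of astrocyte endfeet and of collecting duct cells in the kidney, lies on chromosome 18. Its levels were 4.61 and 5.04 in FFPE and frozen brain, 4.94 and 4.61 in FFPE and frozen heart, 4.84 and 5.86 in FFPE and frozen kidney, and 5.03 and 4.66 in FFPE and frozen liver. Frozen kidney stood highest, with 111 reads, while FFPE kidney lay among the other profiles. The brain fold was -0.17 ± 0.33 (limma, adjusted p = 0.869) and the kidney fold 0.54 ± 0.33 (adjusted p = 0.624), and no pair of organs was separated. Collecting duct genes summed to 297 to 347 RPM in kidney and 130 to 279 elsewhere, and 0 of 10 were called higher in kidney. Among 12 aquaporin genes, heart had Aqp1 (1.57 ± 0.27, adjusted p = 0.000863), the channel of endothelium and red cells, and Aqp7 (1.39 ± 0.39, adjusted p = 0.0366), a glycerol channel, while Aqp9 was lower there (-2.43 ± 0.38, adjusted p = 0.000279). Liver had Aqp9 (3.21 ± 0.38, adjusted p = 6.02e-06), the glycerol channel of hepatocytes, and Aqp8 (1.77 ± 0.48, adjusted p = 0.0212), while Aqp2, the vasopressin-regulated channel of the collecting duct, was lower (-1.55 ± 0.42, adjusted p = 0.0223). In brain 0 of 12 were called higher, and Aqp1 was lower, with a fold of -2.44 ± 0.27 (adjusted p = 6.17e-06). Both calls of Aqp9 and the brain call of Aqp1 held whichever profile was left out. Aqp8 was called in 4 of 8 such fits, with a fold of 0.68 without frozen liver (adjusted p = 0.704) and 2.87 without FFPE liver. Aqp2 and Aqp7 were called in 3 of 8, and Aqp1 in heart was lost without frozen heart (1.46, adjusted p = 0.11).

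Aldh1l1 encodes 10-formyltetrahydrofolate dehydrogenase, an enzyme of 1-carbon metabolism that is abundant in liver and is widely used to label astrocytes; it is annotated at chr6:90550768-90599171. Its levels were 7.25 and 7.0 in FFPE and frozen liver, 6.39 and 6.0 in FFPE and frozen kidney, 4.94 and 4.52 in FFPE and frozen brain, and 4.88 and 3.55 in FFPE and frozen heart. Liver lay above all others, kidney lay between, and brain and heart overlapped at the bottom. Aldh1l1 was higher in liver by 2.07 ± 0.27 (limma, adjusted p = 2.27e-05), where 4.52% of all genes were called higher. It was lower in heart, with a fold of -1.80 ± 0.27 (adjusted p = 0.000202; 2.18% of genes were called lower), and lower in brain, with a fold of -1.11 ± 0.27 (adjusted p = 0.0114; 4.02% of genes).

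In pairs of organs, Aldh1l1 was lower in brain than in kidney (-1.46 ± 0.33, adjusted p = 0.0115) and than in liver (-2.39 ± 0.33, adjusted p = 4.3e-05), and lower in heart than in kidney (-1.98 ± 0.33, adjusted p = 0.00119) and than in liver (-2.91 ± 0.33, adjusted p = 4.51e-06). The neighbours in this order were not separated: kidney and liver differed by -0.93 ± 0.33 (adjusted p = 0.148) and brain and heart by 0.51 ± 0.33 (adjusted p = 0.464). The brain call was lost without FFPE brain (-0.999, adjusted p = 0.308), without frozen brain (-1.23, adjusted p = 0.206), and without the 2 profiles rich in mitochondrial reads, FFPE heart and FFPE kidney, an alternative chosen after the data were seen (-0.94, adjusted p = 0.129). The heart call was lost without frozen heart (-1.31, adjusted p = 0.0823), the lowest profile. The call between brain and kidney was lost without FFPE heart and FFPE kidney together (-1.43, adjusted p = 0.191) and without either profile of brain (adjusted p = 0.216 without FFPE brain and 0.152 without frozen brain) or of kidney (0.143 without FFPE kidney and 0.181 without frozen kidney), and that between heart and kidney without frozen heart (-1.49, adjusted p = 0.098) or frozen kidney (-1.84, adjusted p = 0.0797). Hepatocyte genes summed to 2318 (FFPE) and 10374 (frozen) RPM in liver, against 104 to 203 elsewhere, and proximal tubule genes to 1532 to 2047 in kidney, against 299 to 1147 elsewhere; their part in the Aldh1l1 result was not tested.

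The 9 genes listed as folate enzymes, which include Aldh1l1 itself, had a median liver fold of 0.76, beside -0.02 for all genes. In liver, where 4.52% of all genes were higher and 3.39% lower, 4 of the 9 were higher and none lower. Besides Aldh1l1 they were Gnmt, the glycine methyltransferase that controls S-adenosylmethionine in liver (3.41 ± 0.37, adjusted p = 1.76e-06), and the serine hydroxymethyltransferases Shmt1 (1.61 ± 0.30, adjusted p = 0.00103) and Shmt2 (1.01 ± 0.30, adjusted p = 0.039). In heart 4 of the 9 were lower, among them Aldh1l1, Gnmt and Shmt1, and in brain Aldh1l1 and Shmt2 were lower. Gnmt in liver held whichever profile was left out, whereas Shmt1 was lost without frozen liver (1.19, adjusted p = 0.104) and Shmt2 was called in 2 of 8 such fits, with a liver fold of 0.51 without frozen liver (adjusted p = 0.612). Shmt2 in brain was called in 2 of 8, Shmt1 in heart in 4 of 8, and Gnmt in heart in 5 of 8, with a fold of -0.78 without frozen heart (adjusted p = 0.522). The gene at lower coordinates than Aldh1l1, Klf15, 58965 bases away, was also higher in liver (2.05, adjusted p = 0.000142) and lower in brain (-1.34, adjusted p = 0.00832). The gene on its other side, Slc41a3, 5559 bases away, was higher in heart (1.15, adjusted p = 0.0249), where Aldh1l1 was lower.

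**Figure D2:**
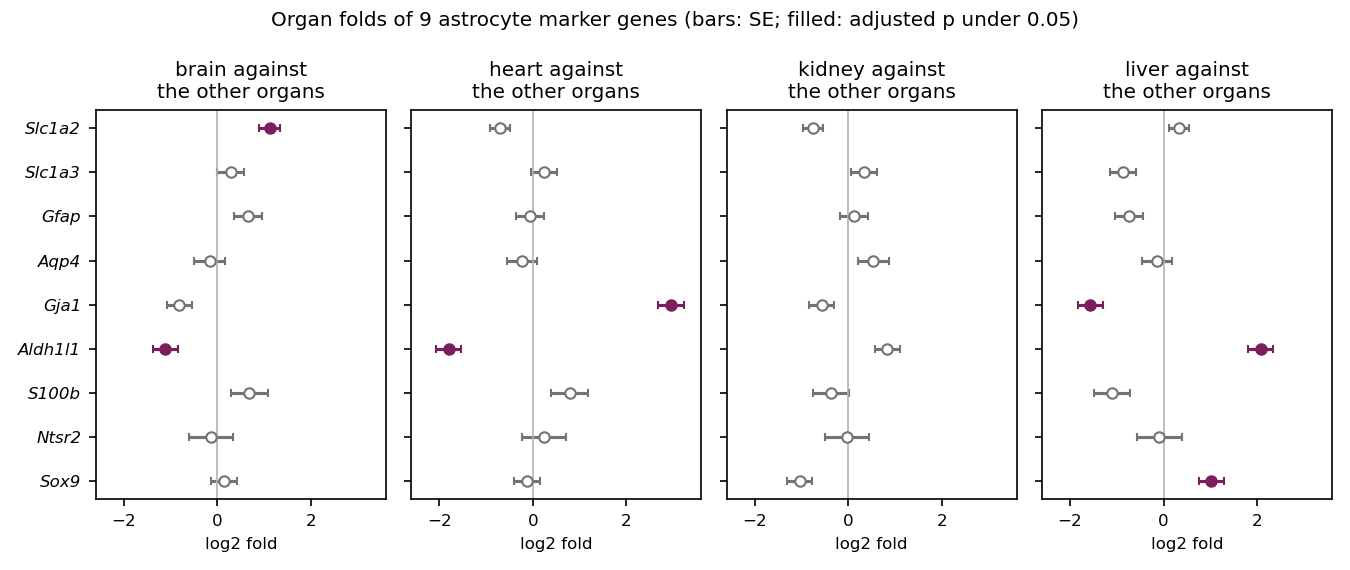
Log2 fold of each of the 9 genes (y axis) in each organ against the mean of the other organs (x axis, log2), with bars for the standard error and filled points for an adjusted p under 0.05. The 7 filled points belong to Slc1a2, Gja1, Aldh1l1 and Sox9, and the folds reach from -1.80 (Aldh1l1 in heart) to 2.95 (Gja1 in heart).

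Gfap, the intermediate filament protein by which astrocytes are most often stained, lies at chr11:102887336-102897200. Its levels were 5.41 and 5.61 in FFPE and frozen brain, 5.26 and 4.69 in FFPE and frozen heart, 5.13 and 5.09 in FFPE and frozen kidney, and 4.72 and 4.20 in FFPE and frozen liver. Both brain profiles lay above the other 6, but the gap to FFPE heart was small. Brain and the rest differed by 0.66 ± 0.30, which did not pass (limma, adjusted p = 0.231), and brain and liver by 1.05 ± 0.37 (adjusted p = 0.078). The last of these passed without mitochondrial genes in the totals (1.2, adjusted p = 0.0485), where the median of all genes was 0.18 between these organs. Slc1a2 and Gfap were the 2 of 9 genes with both brain profiles above the other 6, as 8.4% of all tested genes were.

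Among 10 intermediate filament genes, the neurofilaments Nefm (2.72 ± 0.61, adjusted p = 0.00578) and Nefl (2.04 ± 0.48, adjusted p = 0.00921) were higher in brain, and Krt8, a keratin of simple epithelia, was lower (-1.54 ± 0.44, adjusted p = 0.0327). In heart the muscle filament gene Des was higher (3.06 ± 0.33, adjusted p = 3.31e-06), and so were Vim (2.01 ± 0.41, adjusted p = 0.00361) and Nes (1.23 ± 0.26, adjusted p = 0.00553). In liver Krt8 was higher (2.16 ± 0.44, adjusted p = 0.00259), and Des and Nes were lower. The mean that liver was tested against includes heart, so these lower calls are not results apart from the high heart levels. Of these, Des held in heart and in liver whichever profile was left out. Nefm and Nefl were lost without either brain profile, Vim and Nes in heart without either heart profile, and Krt8 and Nes in liver without frozen liver, while Krt8 in brain was called in 3 of 8 such fits. Vim and Nes are also made by immature and reactive astrocytes; Vim had a brain fold of -1.12 ± 0.41 (adjusted p = 0.107).

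S100b encodes a calcium-binding protein of astrocytes, oligodendrocyte lineage cells and several cell types outside the brain, and lies at chr10:76253836-76261319. Its levels were 4.85 and 4.45 in FFPE and frozen brain, 4.54 and 4.93 in FFPE and frozen heart, 4.18 and 3.55 in FFPE and frozen kidney, and 3.49 and 3.14 in FFPE and frozen liver, from 10 to 58 reads. Brain and heart overlapped at the top, and both liver profiles lay below the other 6. Neither the brain fold of 0.68 ± 0.39 (limma, adjusted p = 0.398) nor the heart fold of 0.79 ± 0.39 (adjusted p = 0.295) passed, and the liver fold was -1.10 ± 0.39 (adjusted p = 0.0958). Dip2a, whose annotation begins 1715 bases beyond S100b, was higher in brain by 0.78 (adjusted p = 0.0393). Of 12 S100 genes, S100a13 was higher in heart (1.51 ± 0.43, adjusted p = 0.0404) and lower in brain (-1.44 ± 0.43, adjusted p = 0.0411), and no other was called in an organ. The heart call held in 2 of 8 fits without 1 profile and the brain call in 3 of 8. In FFPE heart, 2 of the 12 were at 0 reads.

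Ntsr2, a neurotensin receptor that RNA studies place in mouse astrocytes, lies at chr12:16653443-16660236 and had the fewest reads of the 9, 212 over the 8 profiles. Its levels were 4.21 and 3.69 in FFPE and frozen brain, 3.42 and 5.05 in FFPE and frozen heart, 4.34 and 3.73 in FFPE and frozen kidney, and 4.59 and 3.38 in FFPE and frozen liver. All 4 organs overlapped, and the organ means spanned 0.29, the narrowest range of the 9. The brain fold was -0.14 ± 0.47 (limma, adjusted p = 0.932). The annotation of Ntsr2 overlaps that of Lpin1, a phosphatidate phosphatase gene at chr12:16535669-16653903, and reads in the overlap cannot be assigned. Lpin1 was higher in liver (2.35, adjusted p = 7.35e-07) and lower in brain (-1.32, adjusted p = 0.000765), with 293 (FFPE) and 1086 (frozen) reads in liver. In the list of Ntsr1, Ntsr2 and Sort1, limma called none in any organ; at an unadjusted p under 0.05 there was 1 of 3 in brain, 1 in heart and 0 in both kidney and liver.

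Sox9 encodes the transcription factor that specifies astrocytes in the nervous system and is also active in bile duct cells and in kidney development; it lies at chr11:112782210-112787757. Its levels were 6.09 and 6.93 in FFPE and frozen liver, 5.77 and 5.94 in FFPE and frozen brain, 5.96 and 5.34 in FFPE and frozen heart, and 4.77 and 5.16 in FFPE and frozen kidney. Both liver profiles lay above the other 6, FFPE liver only narrowly, and both kidney profiles lay below them. Sox9 was higher in liver by 1.02 ± 0.27 (limma, adjusted p = 0.0212), and lower in kidney than in liver, with a fold of -1.55 ± 0.34 (adjusted p = 0.00764; 3.76% of all genes were called between these organs). The kidney fold against all other organs, -1.04 ± 0.27, did not pass (adjusted p = 0.0626), and passed under quantile normalization (-0.98, adjusted p = 0.0351), with voom weights (-1.01, adjusted p = 0.046), and without frozen heart (-1.22, adjusted p = 0.0388), FFPE liver (-1.18, adjusted p = 0.00307) or frozen liver (-0.90, adjusted p = 0.0435). Brain did not differ past the threshold from the other organs (0.14 ± 0.27, adjusted p = 0.865) or from liver (-0.66 ± 0.34, adjusted p = 0.28). Heart and liver differed by -0.86 ± 0.34, which did not pass (adjusted p = 0.141), so kidney against liver was the only pair called. The unadjusted p from limma was 0.000957 for the kidney fold and 0.00112 for the liver fold. A high liver and a low kidney are therefore not told apart by these calls.

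The liver call of Sox9 rested on frozen liver more than on any other profile: without it the fold was 0.59 (adjusted p = 0.468). It was also lost without FFPE kidney (0.98, adjusted p = 0.0541), FFPE brain (1.03, adjusted p = 0.0533), frozen brain (1.02, adjusted p = 0.0639) or frozen heart (0.84, adjusted p = 0.0785). The difference between kidney and liver was lost without frozen liver (-1.12, adjusted p = 0.148), FFPE kidney (-1.42, adjusted p = 0.137) or frozen kidney (-1.67, adjusted p = 0.106). Bile duct genes summed to 169 to 277 RPM in liver and 75.3 to 299 elsewhere, with 1 of 7 (Onecut1) higher in liver; hepatocyte genes were higher in 10 of 10. The part of either cell type in the Sox9 result was not tested. Of 7 SoxE and related Sox genes, Sox9 alone was higher in liver, while Sox4 (-1.52 ± 0.35, adjusted p = 0.00628) and Sox2 (-1.85 ± 0.32, adjusted p = 0.000484) were lower there. Sox8, a close relative of Sox9, was higher in brain (1.22 ± 0.34, adjusted p = 0.0271), and Sox6 was lower (-0.74 ± 0.22, adjusted p = 0.0414). In heart Sox4 (1.37 ± 0.35, adjusted p = 0.0197) and Sox6 (0.76 ± 0.22, adjusted p = 0.0439) were higher. Of these, only Sox2 in liver was called whichever profile was left out. Sox8 was called in 3 of 8 such fits, with a fold of 0.67 without frozen brain (adjusted p = 0.854), and Sox6 in 2 of 8 for either organ. Sox4 in liver was called in 6 of 8, with a fold of -0.40 without frozen liver (adjusted p = 0.619), -1.31 without frozen heart (adjusted p = 0.0504) and -2.64 without FFPE liver. In heart Sox4 was called in 3 of 8, with a fold of 0.73 without frozen heart (adjusted p = 0.554).

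In kidney against the other organs none of the 9 genes was called by limma, where 0.919% of all genes were called higher and 0.456% lower; 4 had an unadjusted p under 0.05. Sox9 was the 1 gene with both kidney profiles below the other 6 (3.05% of all genes). Both heart profiles lay above the other 6 for Gja1 alone (7.66% of all genes). Both liver profiles lay above the other 6 for Aldh1l1 and Sox9 (7.29% of all genes) and below them for Slc1a3, Gja1 and S100b (6.16%). The median fold of the 9 genes was 0.14 in brain. For heart it was -0.05, for kidney -0.02 and for liver -0.14, while the median of all genes tested lay between -0.02 and 0.01 in each organ. Of the 54 tests of the 9 genes between pairs of organs, 10 were called, for Slc1a2, Gja1, Aldh1l1 and Sox9; of all genes, 2.67% to 9.32% were called in a pair.

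A further 26 genes of astrocytes, listed with earlier results of these data known, were mixed as well. In brain 4 were higher, 1 was lower and 21 did not pass, with a median fold of 0.54, where 3.43% of all genes were higher and 4.02% lower with a median of 0.01. The higher genes included Ntrk2, the receptor of brain-derived neurotrophic factor (2.03 ± 0.24, adjusted p = 9.66e-06), Atp1b2, a subunit of the sodium pump (1.57 ± 0.29, adjusted p = 0.00108), and Dio2, the deiodinase that activates thyroid hormone (1.39 ± 0.36, adjusted p = 0.0165). The lower gene was Ppp1r3c, a glycogen-targeting subunit of a phosphatase (-1.19 ± 0.30, adjusted p = 0.0133). Among those that did not pass, the largest folds belonged to Aldoc (1.58 ± 0.51, adjusted p = 0.0643), Apoe (-1.27 ± 0.46, adjusted p = 0.106), Gjb6 and Vim. Of the 16 alternative settings, Ntrk2 was called under 16, Atp1b2 under 15, Ppp1r3c under 13 and Dio2 under 10. Without frozen brain the fold of Ppp1r3c was -0.78 (adjusted p = 0.646) and that of Atp1b2 1.36 (adjusted p = 0.203), and Dio2 was lost without either brain profile, frozen heart or FFPE kidney. Neurons also express Ntrk2, so the list is not made of genes of astrocytes alone.

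In other organs the same 26 genes included 4 that were higher in heart (Vim, Ppp1r3c and Sparcl1 among them), 2 in kidney (Cldn10 and Slc4a4) and 3 in liver (Apoe, Ppp1r3c and Clu). Apoe, the lipoprotein gene shared by astrocytes and hepatocytes, was higher in liver by 2.99 ± 0.46 (adjusted p = 0.000147), by 1.33 without frozen liver (adjusted p = 0.145) and by 4.64 without FFPE liver. Lower genes numbered 3 for heart, 3 for kidney and 4 for liver. Of all genes, 3.06% were higher and 2.18% lower in heart, 0.919% and 0.456% in kidney, and 4.52% and 3.39% in liver. Cldn10 was called in 3 of 8 fits without 1 profile, and Slc4a4 in kidney and Vim and Sparcl1 in heart were lost without either profile of that organ. Ppp1r3c in heart was lost without FFPE heart (1.71, adjusted p = 0.0723), whereas Ppp1r3c and Clu in liver held whichever profile was left out. The summed level of the 26 genes was 1404 to 1443 RPM in brain and 1021 to 1795 elsewhere, while neuronal genes summed to 905 to 970 in brain and 158 to 278 elsewhere.

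**Figure D3:**
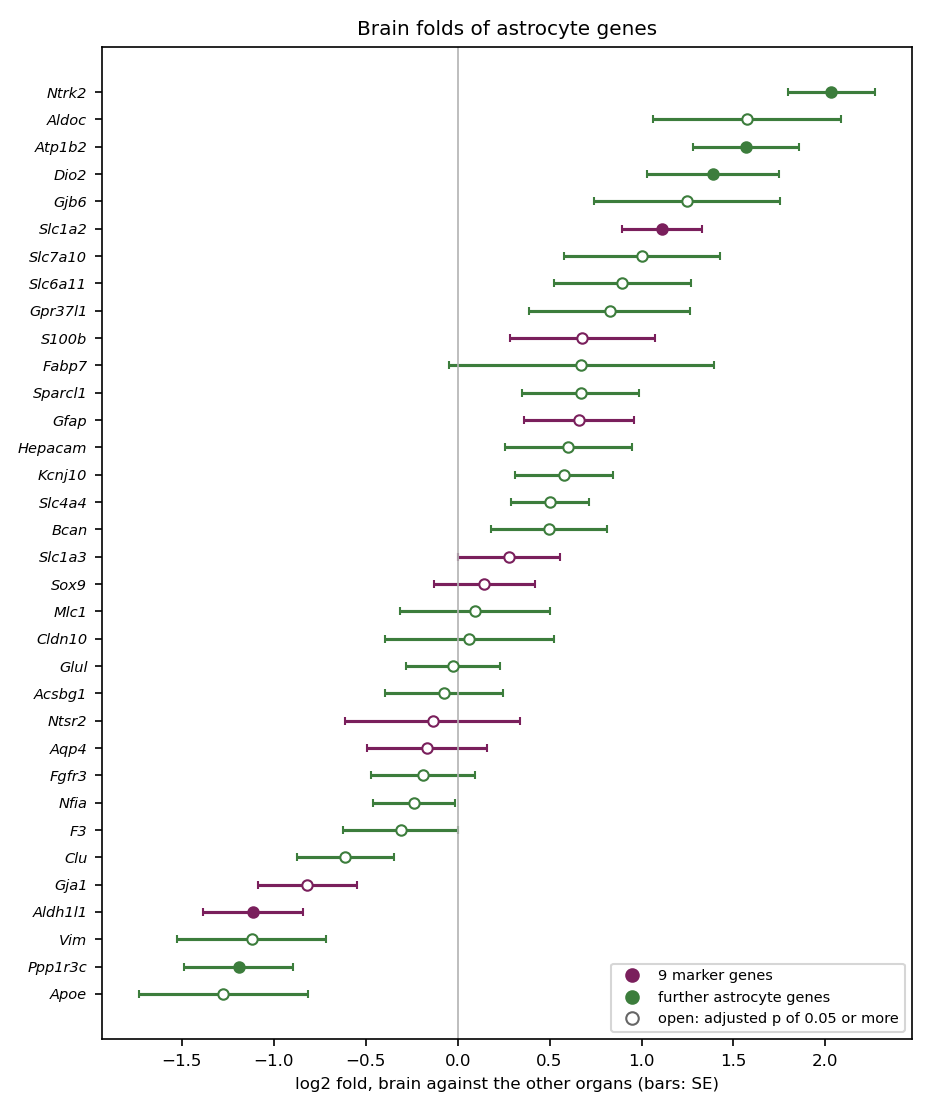
Brain folds (x axis, log2, brain against the other organs, bars for the standard error) of the 9 genes and of further astrocyte genes, sorted by fold (y axis). Filled points passed an adjusted p of 0.05: Slc1a2 and Aldh1l1 among the 9, and Ntrk2, Atp1b2, Dio2 and Ppp1r3c among the further genes.

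The 9 genes did not move together across profiles. Of the 36 pairs among them, 15 had a positive Pearson r over the 8 profiles, with a median of -0.11. The extremes were 0.81 for Slc1a3 and Gfap and -0.88 for Aldh1l1 and S100b. These correlations describe 8 profiles that come in pairs from 4 organs and share depth and scaling. Over the 19368 genes with a mean level of at least 3, those most like each member had r between 0.915 and 0.995. With so many genes searched over 8 profiles, a high r is reached even without an organ pattern. The nearest gene to Ntsr2, whose organ means were almost flat, had r = 0.960. The genes most like Slc1a2 were Wfikkn1, Rgs8 and Cbln3 (r = 0.974, 0.972 and 0.966), of which Rgs8 and Cbln3 are known from cerebellar neurons. Those most like Gfap were Slc1a6, a glutamate transporter of Purkinje cells (0.984), Sez6 (0.982) and Plat (0.973).

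For Aldh1l1 the nearest profiles were those of Spatc1l (0.986), Scyl3 (0.982) and Atp8b5 (0.978), and for Sox9 those of Mfsd14b (0.971), Ebp, a sterol isomerase (0.965), and Gp5 (0.95). Slc1a3 was closest to Gm5082 (0.956), Dusp4 (0.954) and Clcn6 (0.953), and S100b to Myog (0.963), Pcdhgc4 (0.962) and Cnnm4 (0.961). The members with a flat pattern had Hoxc13 (0.930), Trarg1 (0.923) and Gm3086 (0.915) beside Aqp4, and Gm19579 (0.960), Hemk1 (0.954) and Ino80 (0.953) beside Ntsr2.

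FFPE tissue was compared with frozen tissue over the 4 organs, as 4 against 4 profiles with organ as a block. Limma called none of the 9 genes, where 0.153% of all genes were called higher and 0.422% lower in FFPE tissue; 1 of the 9, Aldh1l1, had an unadjusted p under 0.05. The fold of Aldh1l1, 0.60 ± 0.24, was the largest and was positive in all 4 organs (adjusted p = 0.379). The median of the 9 folds was 0.17, beside -0.01 for all genes. The FFPE value of Slc1a3 also lay above the frozen value in each organ, with a fold of 0.31 ± 0.24 (adjusted p = 0.751). Of the 26 further astrocyte genes, none was called.

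Within an organ there is 1 FFPE and 1 frozen profile, so ratios of reads carry only exact (Clopper-Pearson) 95% binomial intervals, which cover counting error alone. Of the 36 ratios, 8 had an interval that did not include 0, namely 4 for heart, 2 for kidney, 2 for liver and 0 for brain. Of all genes tested, the share with such an interval was 22.1% for heart, 22.7% for kidney, 30.9% for liver and 21.3% for brain. In heart, Gja1 was lower in FFPE tissue, with a log2 ratio of -0.73 (-1.03 to -0.44) from 127 and 394 reads. In the same organ Ntsr2 was lower (-1.71, -3.00 to -0.62), from 8 FFPE and 49 frozen reads, and Aldh1l1 (1.34, 0.37 to 2.34) and Sox9 (0.61, 0.04 to 1.18) were higher. In FFPE against frozen heart, cardiomyocyte genes summed to 3491 against 7308 RPM and mitochondrial genes took 25.6% against 11.99% of reads; the part of either in these ratios was not tested.

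In kidney, Aqp4 was lower in FFPE tissue (-1.03, -1.59 to -0.50), with 40 FFPE and 111 frozen reads, and Aldh1l1 was higher (0.39, 0.017 to 0.77). In liver, Sox9 was lower in FFPE tissue (-0.85, -1.28 to -0.44), with 63 FFPE and 229 frozen reads, and Ntsr2 was higher (1.22, 0.27 to 2.19). Hepatocyte genes summed to 2318 in FFPE and 10374 RPM in frozen liver, and their part in these ratios was not tested. In brain none of the 9 ratios stood apart from 0. A test of whether the FFPE effect in an organ differed from that in the other organs called none of the 36 combinations of gene and organ. The 2 with an unadjusted p under 0.05 by limma were Ntsr2 in heart (adjusted p = 0.764) and Sox9 in heart (adjusted p = 0.814). For Ntsr2 in liver the unadjusted p was 0.113 and the adjusted p 0.571. Over all 26758 genes this test called 0 in brain, heart and kidney and 142 in liver, with 397, 1639, 1026 and 3029 at an unadjusted p under 0.05 in the same order of organs. The number of ratios apart from 0 was 13 when totals were scaled to silent receptor genes, and with these totals the Gja1 ratio in heart was -1.03. Such a scaling moves the ratios of all genes in an organ by the same amount. The share of all genes was not computed for it, so the change in number is not a result about the 9 genes.

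**Figure D4:**
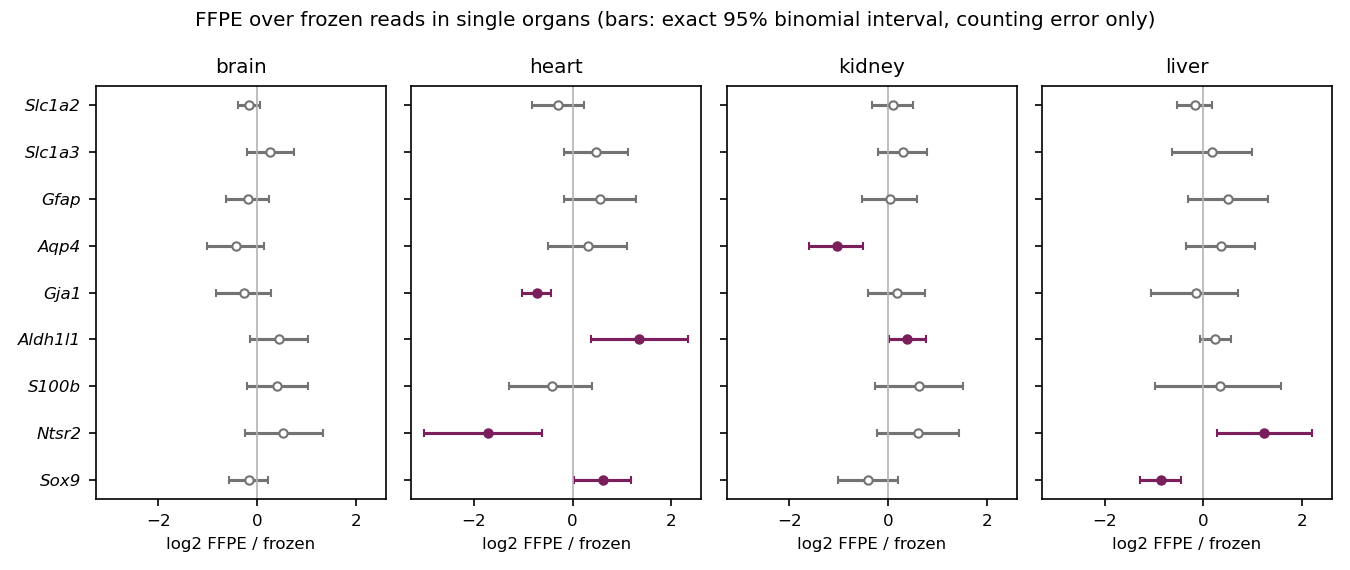
Log2 ratio of FFPE over frozen reads (x axis) for each of the 9 genes (y axis) in each organ, with exact 95% binomial intervals that cover counting error only. Filled points have intervals that do not include 0: 4 in heart, 2 in kidney, 2 in liver and none in brain, and they lie on both sides of 0.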

How the data were processed

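Pol II chromatin immunoprecipitation was sequenced from FFPE and frozen mouse brain, heart, kidney and liver. Alignment used Bowtie2 and mm10, counting used featureCounts, and limma followed, per the submitters' processing notes; tool versions, the strand setting and the choice between exons and whole genes were not stated there. The authors deposited log2 values, on the scale of limma's voom function: 0.5 reads are added to each count before division by a scaled total. Reads recovered from them were whole for 100% of values (relative tolerance 1e-06). A column may be 1 library or the 2 of its group merged, which the sources used here do not settle. From its title the table was taken to be Pol II, and inputs were not analysed here. The design was written for any number of columns per organ and preservation.

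A gene entered the tests if its log2 value reached 0 in 2 or more profiles, which left 26758 genes. Limma 3.58.1 in R 4.3.3 was fitted to the log2 values with organ and preservation as terms, empirical Bayes with a trend, and Benjamini-Hochberg adjustment over all genes tested, leaving 3 residual degrees of freedom with a prior of 19.4. The fit was also run on simulated reads with known folds and a single spread for all genes, and no result above rests on that run. Entrez numbers of 25275 genes (93%) were found in the RefSeq positions (GRCm38.p6), and 1275 rows had no symbol. Of the 9 genes, 7 had an entry in the table of promoters. Genes are named by rule: all 9 members; of the other astrocyte genes up to 8 called and 4 not called with the largest brain folds; of each family up to 3 called upward per organ; the 3 genes most like each member by Pearson r; and overlapping or nearest genes. Genes called lower, and the list genes called in organs other than brain, were named after their values were seen. The members, lists and rules were chosen with earlier results of these data known. Alternatives were other filters, scalings, weights and added reads, and leaving out profiles. Some named genes are not reported here.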

Additional observations from a re-analysis of the deposited data

Results flagged for a closer look

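Slc1a3 in FFPE liver, at 4.59 (log2 depth-scaled reads, 22 reads), lay far below the other 3 FFPE profiles, which were between 5.48 and 5.56. The gap was 0.919 of the range of the 4 FFPE profiles, above Dixon's 95% critical value for 4 samples. That rule takes 4 draws from 1 population, whereas these profiles are 4 different organs. The flag therefore cannot tell an organ difference from an outlying profile. The frozen liver profile was also the lowest of the frozen profiles, at 4.39. Of 18 groups of 4 profiles examined this way, chance would flag about 1 in 20 only if organs did not differ.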

How the results depend on the processing

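No paired analysis was possible because the columns carry no replicate number that could pair them; FFPE against frozen was fitted with organ as the block, and this has no replicate-paired counterpart. Of 99 tests of the 9 genes (organs, pairs of organs and FFPE against frozen), 17 were called, 8 of them under all 16 alternatives, and none of the 17 changed sign. Gja1 in heart and in liver and Aldh1l1 in liver were called under every alternative. Of the 82 tests not called, 32 changed sign at least once and 10 were called under some alternative.
Under quantile normalization 2 of the 9 genes were lower in heart, and 1 was higher and 1 lower in kidney. Of all genes, 754 were then lower in heart (582 in the main fit), 483 higher in kidney (246) and 193 lower (122). With voom weights 1 of the 9 was lower in kidney, and 190 of all genes were. Without mitochondrial genes in the totals 2 were lower in heart and 2 in liver. Of all genes, 670 were then lower in heart (582 in the main fit) and 1248 in liver (907). Scaling to silent receptor genes moved the median brain fold of all genes to -0.22 and the heart fold to 0.23. With it 0 of the 9 were higher in brain, and 467 of all genes were, instead of 918. Of the further astrocyte genes 2 were higher and 2 lower in brain. In this scaling 13 FFPE to frozen ratios stood apart from 0 instead of 8, and the share of all genes was not computed. Without FFPE heart and FFPE kidney 0 were lower in brain, and 2 of the further astrocyte genes were higher and 0 lower. The last pair of settings was chosen after the data were seen, and the cause of these changes was not tested.
Leaving out each profile in turn, calls of an organ against the others ranged from 4 (without either brain profile) to 11 (without FFPE liver), with 7 from all profiles. Pairs ranged from 6 (without frozen kidney) to 11 (10 from all profiles), and FFPE against frozen from 0 to 0. By organ, higher and lower counts ranged from 0 to 1 and 0 to 2 in brain, 1 to 1 and 0 to 2 in heart, 0 to 0 and 0 to 2 in kidney, and 1 to 2 and 1 to 1 in liver. For the further astrocyte genes in brain they ranged from 1 (without frozen brain) to 6 and from 0 (without frozen brain or FFPE heart) to 3 (without FFPE liver). Of 59 calls of list genes, 14 held under every alternative and none changed sign. A fit that leaves out a profile has 1 left in that organ, and the calls over all genes moved too. Fewer of all genes were called in each organ without either brain profile, and more without FFPE liver. Between pairs of organs, fewer of all genes were called without frozen kidney. The ranges above are therefore not particular to the 9 genes. Each organ has 2 profiles and some levels rest on under 20 reads, which limits what can be separated.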
